A study of Homo sapiens with 8 samples.

Results

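The comparison described here set the F158E form of PML/RARα against an empty vector in NB4 cells, an established acute promyelocytic leukemia (APL) line that carries the PML/RARα fusion. Its libraries were chosen by construct: 2 labelled F158E and 2 labelled empty vector, 4 of the 8 RNA-seq libraries in the series. It asks what the mutant still does to gene expression in cells depleted of their own fusion. All 8 libraries came from cells infected for 72 h with lentivirus that knocked down the endogenous fusion and supplied a replacement. The empty vector group received no fusion in its place, and the F158E group received HA-tagged PML/RARα with a phenylalanine replaced by glutamate. The other groups, of 2 libraries each, received HA-tagged full-length PML/RARα or HA-tagged PML/RARα with the ΔIDR change. Per the labels, F158E and ΔIDR both lack phase separation. All 8 libraries carry the knock-down, so they hold no level for cells with the endogenous fusion intact. The labels name neither the promoter of the constructs nor any clone.

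PML is the scaffold of nuclear bodies, and its RING, B-box and coiled-coil domains let it assemble into large structures; the F158E change lies in the first B-box. RARα is a nuclear receptor that, with RXR, binds retinoic acid response elements and recruits corepressors until retinoic acid arrives. In APL the fusion keeps cells at the promyelocyte stage, and it also occupies many sites bound by the myeloid factor PU.1. Loss of the fusion, by retinoic acid, arsenic or knock-down, is known to be followed by expression of granulocyte genes such as those of the phagocyte oxidase.

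Depth in gene counts was 18613826 and 19037914 for empty vector libraries 1 and 2, and 21930353 and 21918365 for F158E. Levels below are CPM, gene counts scaled to a common library total with TMM factors. They are given as the value in library 1 and library 2 of a group. Log2 fold changes are F158E minus empty vector from edgeR unless another contrast is named. The SE after ± was derived from edgeR's F statistic. Whether libraries 1 and 2 stem from independent cultures is not stated in the labels, so every p-value here rests on a spread between libraries that may be purely technical. The promyelocyte markers were present in all 4 libraries, with MPO at 3748 to 4103 CPM and CD33 at 60.6 to 63.8 CPM, both scaled to the plain library total. The T cell marker CD3E, the erythroid marker HBB and the fibroblast marker COL1A1 had 0 or 1 counts, whereas the B cell marker CD79A had 38 to 76 counts. EPCAM, an epithelial marker, had 115 to 272 counts. In bulk RNA, fewer cells of a type and less RNA per cell cannot be told apart.

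Both genes that make up the fusion were higher with F158E. RARA (ENSG00000131759.16, chr17:40309192-40357643 of GRCh38), the retinoic acid receptor gene, was at 24.1 and 22.1 CPM with empty vector, 32.4 and 32.2 with F158E and 78.3 and 75.6 with full-length PML/RARα. Its log2 fold change was 0.49 ± 0.06 (adjusted p = 4.29e-10). PML (ENSG00000140464.18, chr15:73994673-74047812) was at 51 and 52.8 CPM with empty vector, 65.8 and 66.1 with F158E and 127 and 121 with full-length, and its log2 fold change from empty vector was 0.35 ± 0.05 (adjusted p = 9.59e-07). The F158E libraries thus stood above empty vector by 14 CPM in PML and 9.24 CPM in RARA, against 72.4 and 53.9 CPM for full-length PML/RARα. Against full-length, the log2 differences of RARA and PML were -1.25 ± 0.05 and -0.91 ± 0.05 (adjusted p = 4.52e-39 and 4.12e-29). Reads of the construct, of what was left of the endogenous fusion and of the intact alleles are pooled in these counts, so construct RNA was not measured by itself. Every difference between F158E and full-length cells described below came with this difference in PML and RARA RNA, and the mutation and the amount of RNA cannot be told apart.

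The change from empty vector was broad in number and small in size. Of 13982 genes tested, edgeR's quasi-likelihood test called 1210 (8.65%) at an adjusted p under 0.05, with 557 higher (3.98%) and 653 lower (4.67%) with F158E. Among the called genes 77.85% changed by less than 0.5 on the log2 scale, and their median absolute change was 0.27. At least 2-fold changes numbered 111 (0.794%), of which 78 were falls (0.558%) and 33 were rises (0.236%). Of the 33 rises, 24 were in genes with a mean under 1 log2 CPM and 1 was in a gene at 3 or more, whereas 15 of the 78 falls were at 3 or more. The test against a fold of 1.5 passed 24 genes (0.172%), 23 lower (0.164%) and 1 higher (0.00715%). Among well counted genes the large changes were thus nearly all falls. The libraries of the 2 groups did not overlap in 48.8% of all tested genes, which is the background for each statement of that kind below. Full-length PML/RARα against the same empty vector libraries had 6794 calls (48.6%), and F158E against full-length had 6140 (43.9%).

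Calls depended on level and on each library. Below 1 CPM 1.4% of tested genes were called, and at 100 CPM or more 23.2%, with called changes as small as 0.052 in log2. Without empty vector library 1 the count was 638, without empty vector library 2 it was 675, without F158E library 1 it was 778 and without F158E library 2 it was 764. The 33 rises of at least 2-fold numbered 16 and the 78 falls 52 without empty vector library 1, the falls numbered 52 without empty vector library 2, and the rises numbered 21 without F158E library 1 or 2. The rises were 17 with DESeq2, with 64 falls, and 48 in the fit on the 2 groups only, with 93 falls.

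**Figure D1:**
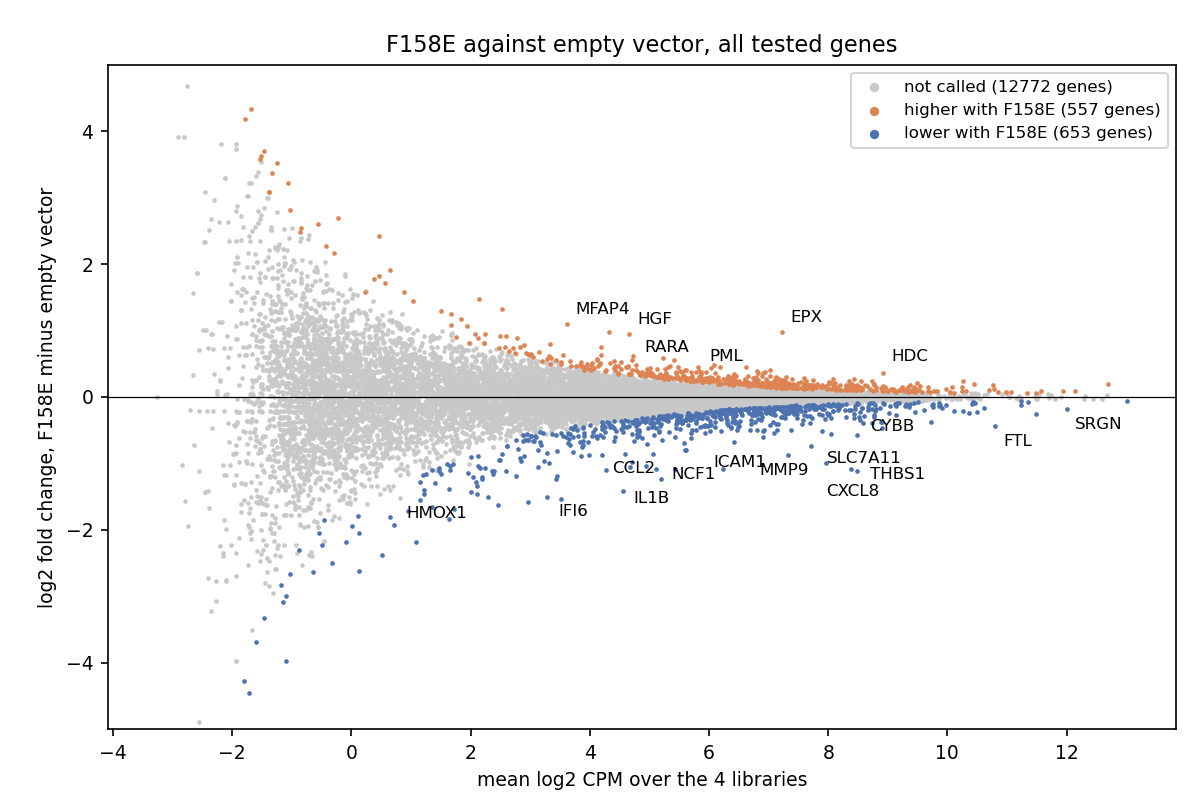
Log2 fold change of each tested gene (F158E minus empty vector) against its mean log2 CPM over the 4 libraries, with 557 higher genes in orange, 653 lower genes in blue and genes that were not called in grey. Named falls such as CXCL8, THBS1 and MMP9 lie near -1 at high levels, and EPX is the rise that stands out there.

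Most of the 24 genes past a fold of 1.5 belonged to a few groups. Among them were secreted inflammatory genes (CXCL8, CCL2, IL1B and C3), the adhesion gene ICAM1, matrix and protease genes (THBS1, MMP9, HTRA3 and the protease inhibitor SERPINA1) and phagocyte genes (NCF1 with its copies NCF1B and NCF1C, S100A8 and S100A9). Others were the interferon-stimulated genes IFI6 and OAS1, the oxidant and xenobiotic response genes HMOX1, SLC7A11 and CYP1B1, and CD101, SH3TC1 and the noncoding gene LINC00963. EPX was the single rise in this test, while 3 genes rose past that fold in the fit on the 2 groups only, with the replicate block or without empty vector library 2, and 2 without any 1 of the other 3 libraries. OAS1, CD101, SH3TC1 and LINC00963 were outside the rule for named genes and were chosen after their values were seen, and S100A8 did not pass the plain test without empty vector library 1.

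Several inflammatory genes fell. CXCL8 (ENSG00000169429.9, chr4:73740506-73743716), the neutrophil-attracting chemokine IL-8, was at 489.7 and 486 CPM with empty vector and 233 and 226 with F158E. The F158E libraries lay 2.13-fold lower, a log2 fold change of -1.09 ± 0.03 (adjusted p = 9.26e-45), with no overlap between the groups. IL1B, the gene of the cytokine interleukin-1β, went from 36.6 and 40.0 to 13.6 and 15.3 CPM (-1.41 ± 0.12, adjusted p = 2.33e-17). CCL2, which attracts monocytes, was at 62.5 and 62.8 CPM and fell to 30.5 and 28.5 (-1.09 ± 0.09, adjusted p = 6.05e-18). ICAM1, the adhesion molecule that binds leukocyte β2 integrins, was at 219.6 and 215 CPM and fell to 125 and 112 (-0.87 ± 0.05, adjusted p = 3.48e-27). Each of these groups was separated by far more than the gap between its own libraries.

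Of 27 tested cytokine and chemokine genes, 8 fell and 1 rose, with a median log2 change of -0.38, beside 0.00249 over all tested genes and 8.65% called. The rise was HGF, described below. IL1A, chosen after its values were seen, fell by 1.40 ± 0.36, and did not pass without empty vector library 2 or without F158E library 1. TNFSF13B, which encodes the B cell survival factor BAFF and was likewise picked from its values, went from 20.6 and 22.4 to 12.8 and 15 CPM, while full-length libraries stood at 23.9 and 25.2.

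Of 33 tested NF-kB pathway genes and targets, 12 fell and 0 rose (14 and 0 at an unadjusted p under 0.05, 9 and 0 with DESeq2), with a median of -0.15. Over all tested genes 20.4% had an unadjusted p under 0.05. NF-kB is the factor family that drives inflammatory transcription, and many of its targets feed back on it. TNFAIP2 fell from 105 and 112 to 65.7 and 70.0 CPM (-0.67 ± 0.06, adjusted p = 1.89e-14), and PLAU, the urokinase gene, from 156 and 141 to 96.7 and 97.9 (-0.61 ± 0.06, adjusted p = 6.04e-14). The subunit gene NFKB2, chosen after its values were seen, was at 128 CPM in each library with empty vector and 108 and 107 with F158E (-0.25 ± 0.06). TNFAIP3, the gene of the feedback inhibitor A20, was at 121 and 116 CPM with empty vector and 109 and 107 with F158E, and did not pass (-0.14 ± 0.06, adjusted p = 0.172, 95% interval -0.26 to -0.02). The list had 7 falls without empty vector library 2.

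The promoters of CXCL8, ICAM1 and 2 called genes described below, IFI6 and NCF1, are shown because they carry the letters of the motifs searched in all promoters. The sequences are from RefSeq on GRCh38.p14, run 5′ to 3′ on the strand of the gene and cover the 250 bases before the start RefSeq gives; capitals mark matches. That start can differ from the gene positions printed elsewhere, which follow another annotation, so that a window can overlap them. CXCL8 (chr4:73740319-73740568, plus strand) holds a kappa B-like match, GGAANTTCC, and an AP-1 match, TGACTCA. ICAM1 (chr19:10270870-10271119, plus strand) holds a kappa B-like match. IFI6 (chr1:27672193-27672442, minus strand) holds 3 matches to the interferon response-like motif, GAAA repeated after any 2 bases. NCF1 (chr7:74773761-74774010, plus strand) holds an interferon response-like match and, on the other strand, the PU.1-like letters GAGGAAG.
CXCL8: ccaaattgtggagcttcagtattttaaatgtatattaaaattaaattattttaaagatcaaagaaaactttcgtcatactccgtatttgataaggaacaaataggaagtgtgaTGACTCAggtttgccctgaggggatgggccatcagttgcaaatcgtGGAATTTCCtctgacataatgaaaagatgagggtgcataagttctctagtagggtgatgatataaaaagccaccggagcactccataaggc
ICAM1: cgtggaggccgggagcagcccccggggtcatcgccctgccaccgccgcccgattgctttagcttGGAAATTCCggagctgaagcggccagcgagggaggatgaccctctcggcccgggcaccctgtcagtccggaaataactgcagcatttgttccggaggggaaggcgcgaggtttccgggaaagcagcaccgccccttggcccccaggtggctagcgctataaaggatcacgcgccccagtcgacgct
IFI6: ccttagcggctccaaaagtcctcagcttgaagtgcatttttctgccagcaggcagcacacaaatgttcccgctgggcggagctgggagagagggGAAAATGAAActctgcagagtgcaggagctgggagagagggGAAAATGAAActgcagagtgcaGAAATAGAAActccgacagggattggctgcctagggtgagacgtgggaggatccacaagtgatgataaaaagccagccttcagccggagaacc
NCF1: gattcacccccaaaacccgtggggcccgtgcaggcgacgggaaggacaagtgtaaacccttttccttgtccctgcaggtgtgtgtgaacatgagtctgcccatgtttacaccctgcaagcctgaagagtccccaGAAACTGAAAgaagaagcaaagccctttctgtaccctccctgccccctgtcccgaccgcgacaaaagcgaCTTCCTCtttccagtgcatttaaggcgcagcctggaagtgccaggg

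Of 13982 tested genes, 10045 had a RefSeq promoter window, 450 of them higher and 514 lower with F158E, and motifs were searched on both strands. TGACTCA lay in 5.64% of the windows of lower genes (29 windows), 0.444% of those of higher genes (2 windows) and 2.61% of all. GGAANTTCC lay in 1.56% (8 windows), 0.222% (1 window) and 0.916%, and in 3 of 11 windows of called NF-kB genes. The interferon response-like motif lay in 4.86%, 2% and 2.42%, and in 6 of 10 windows of called interferon-stimulated genes. The NF-kB and interferon lists were made of genes tied to these pathways, and shares in their uncalled members were not computed. The list shares therefore cannot set called members apart from the rest of their list. GAGGAAG lay in 15.6%, 10.4% and 12.1%. The nuclear receptor half-site AGGTCA lay in 7.59% of lower, 9.33% of higher and 8.44% of all windows, and the E-box CACGTG in 8.56%, 13.1% and 9.08%. The other motifs searched were AGTTCA, TGACNNNGC and TCACNCCAC. AGTTCA lay in 6.61% of lower, 5.78% of higher and 5.88% of all windows, and TGACNNNGC in 16%, 11.1% and 12.4%. TCACNCCAC lay in 0.973% (5 windows), 0.222% (1 window) and 0.816%. Among the 111 windows of called genes lower by at least 1.5-fold, AGGTCA lay in 12.6%, AGTTCA in 9.91% and CACGTG in 8.11%. TGACTCA lay there in 8.11% (9 windows), GGAANTTCC in 3.6% (4 windows), the interferon response-like motif in 7.21% (8 windows) and GAGGAAG in 22.5%. TGACNNNGC and TCACNCCAC lay there in 17.1% and in 1.8% (2 windows). GGAANTTCC can overlap GAGGAAG at the letters GGAA, and TGACTCA followed by GC also matches TGACNNNGC. These shares are descriptions of letters, and binding was not measured.

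Some matrix, protease and coagulation genes fell as well. THBS1 (ENSG00000137801.10, chr15:39581079-39599466), the gene of thrombospondin-1, was at 524 and 533 CPM with empty vector and 249 and 240.3 with F158E. This was a 2.16-fold lower level (-1.11 ± 0.03, adjusted p = 9.26e-45), and the groups were far apart. MMP9, a matrix protease stored in neutrophil granules, went from 355 and 346 to 180.0 and 172 CPM (-0.99 ± 0.04, adjusted p = 2.55e-35). FN1, the fibronectin gene, was lower at 8.49 and 5.99 CPM against 19.7 and 13.5 (-1.20 ± 0.19, adjusted p = 1.21e-06). HTRA3, a secreted serine protease gene, was at 117 and 101 CPM with empty vector and 52.7 and 50.4 with F158E (-1.08 ± 0.07, adjusted p = 2.51e-22).

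Of 21 tested matrix and protease genes, 8 fell and 0 rose (15 and 0 at an unadjusted p under 0.05, 7 and 0 with DESeq2), with a median of -0.35. The count was 5 without empty vector library 1 or without F158E library 1. Of 16 tested coagulation and fibrinolysis genes, 5 fell and 0 rose (7 and 1 at an unadjusted p under 0.05, 5 and 0 with DESeq2). In a list of 19 epithelial and fibroblast markers, 9 were tested. Of these, 2 fell (DCN and LUM) and 0 rose (3 and 2 at an unadjusted p under 0.05, 1 and 0 with DESeq2). The log2 changes of the 9 were positive in 4 and negative in 5, with a median of -0.012. EPCAM lay in the upward direction and did not pass (95% interval 0.07 to 0.83). Without F158E library 1, 2 of these markers rose and 1 fell. DCN, the decorin gene, was at 2.91 and 3.11 CPM with empty vector and 0.731 and 0.411 with F158E. LUM was at 0.593 and 1.32 CPM with empty vector and 0.0913 and 0.137 with F158E, and did not pass when any of the 4 libraries was left out. Both were named after their values were seen. Summed over the marker list, the level was 18.2 and 20.3 CPM with empty vector and 15.5 and 21.6 with F158E. COL1A1 had 0 or 1 counts, and CDH1, FAP, KRT5, KRT14 and KRT19 had 0 in all 4 libraries. The part of such cells in the fall of matrix genes was not tested.

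Part of the mature granulocyte list fell. Of 29 tested, 12 fell and 0 rose (15 and 1 at an unadjusted p under 0.05, 12 and 0 with DESeq2), with a median of -0.51, the lowest median of the lists with 10 or more tested genes. The phagocyte NADPH oxidase, which makes the respiratory burst, has subunits encoded by CYBB, CYBA, NCF1 and NCF4, among others, and these 4 were lower. CYBB, the membrane subunit, was at 430.5 and 445 CPM with empty vector and 288 and 299.8 with F158E (-0.58 ± 0.03, adjusted p = 3.2e-27). NCF1 (ENSG00000158517.12, chr7:74773962-74789315), the p47 subunit with the promoter shown above, went from 57.2 and 54.9 to 25.2 and 22.3 CPM (-1.24 ± 0.08, adjusted p = 6.15e-23). Its near-identical copies NCF1B and NCF1C fell by 1.24 ± 0.14 and 1.53 ± 0.14, and counting may have split reads among the 3, so the share of each is uncertain. CYBA, chosen after its value was seen, fell by 0.34 ± 0.05. NCF4, chosen in the same way, fell by 0.40 ± 0.10, but did not pass without F158E library 1.

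The β2 integrin chain ITGB2 was at 141 and 146 CPM with empty vector and 102 and 98.4 with F158E (-0.51 ± 0.05, adjusted p = 6.56e-13). ITGAM, its CD11b partner and a standard marker of differentiated NB4 cells, was at 22.9 and 23 CPM with empty vector and 20.1 in each library with F158E and did not pass (-0.19 ± 0.12, adjusted p = 0.407, 95% interval -0.43 to 0.05). ITGAX, the CD11c gene, fell by 0.67 ± 0.11 and was named after its value was seen. C5AR1, the receptor for the complement fragment C5a, fell from 12.5 in each library to 6.30 and 5.71 CPM (-1.05 ± 0.16, adjusted p = 6.3e-07). The calprotectin gene S100A8 was low, at 1.83 and 0.792 CPM with empty vector and 0.228 and 0.183 with F158E (-2.63 ± 0.53, adjusted p = 0.000167, not passing without empty vector library 1). Its partner S100A9 fell from 6.53 and 6.44 to 2.15 and 3.20 CPM (-1.28 ± 0.20, adjusted p = 8.24e-07). ALOX5AP, needed for leukotriene synthesis, was at 13.9 CPM in each library with empty vector and 6.30 and 7.68 with F158E (-0.99 ± 0.14). ITGAM aside, each of these genes was called lower with F158E.

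Of 13 tested monocyte and macrophage genes, 4 fell, FCN1, CD86 and TLR4 among them, and 0 rose (6 and 0 at an unadjusted p under 0.05, 4 and 0 with DESeq2). FCN1, a lectin gene of monocytes, went from 66.3 and 61 to 35.8 and 37.4 CPM (-0.80 ± 0.09, adjusted p = 9.13e-12). CD86, a T cell costimulator, was low in every library, at 5.45 and 3.38 CPM with empty vector and 1.69 and 1.10 with F158E (-1.66 ± 0.33, adjusted p = 0.000149).

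Of 32 tested genes that respond to retinoic acid in APL cells, 14 fell and 1 rose, with a median of -0.30; the rise was PML itself. BTG2, an antiproliferative gene, fell from 34.2 and 30.8 to 16.4 and 19.3 CPM (-0.86 ± 0.12, adjusted p = 7.03e-08). CD38 was at 142 and 135 CPM with empty vector and 118 and 117 with F158E (-0.23 ± 0.05, adjusted p = 0.00139) and did not pass without empty vector library 1. Of 15 tested retinoid receptor and metabolism genes 1 fell, DHRS9, and no gene of that list was called when any of the 4 libraries was left out. The retinoic acid targets TGM2, RARB and CYP26A1 had 0 to 5 counts in every library and were not tested. DHRS3, another such target, was tested at 0.809 and 0.0528 CPM with empty vector and 1.05 and 0.594 with F158E and did not pass (0.93 ± 0.84, adjusted p = 0.596, 95% interval -0.74 to 2.60).

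**Figure D2:**
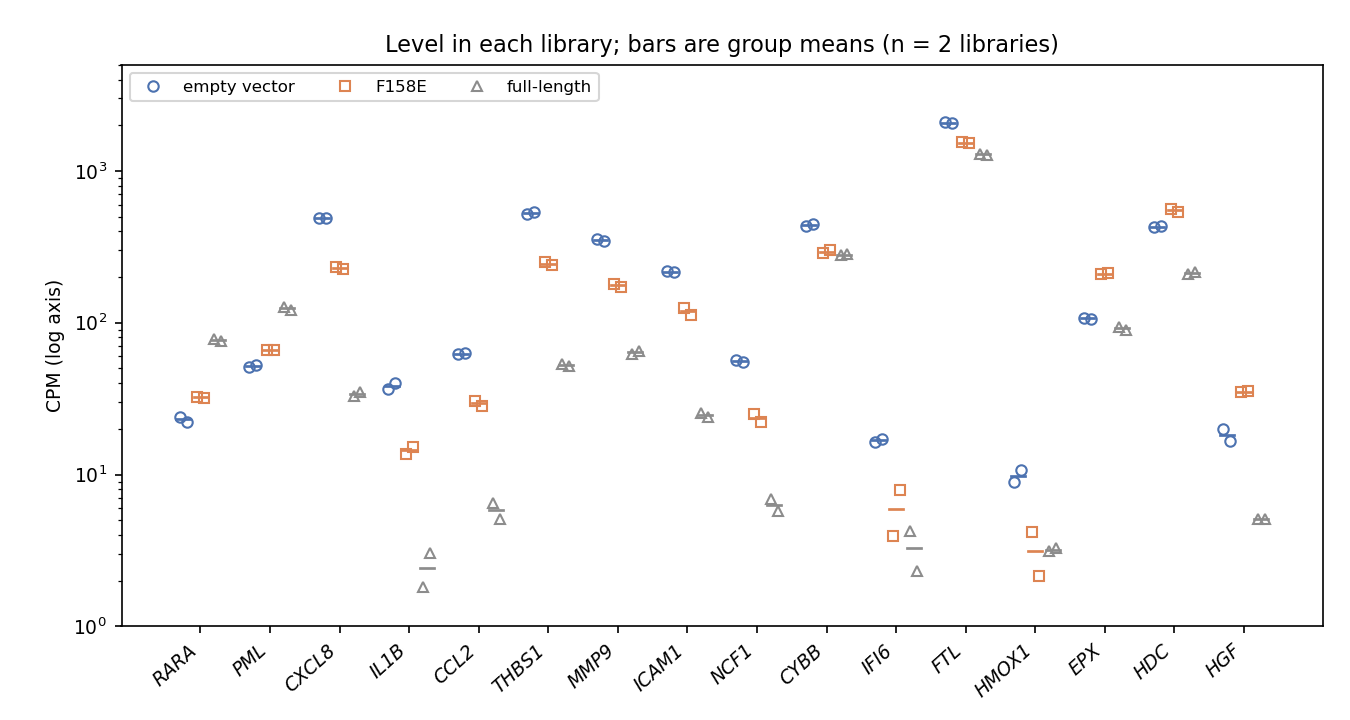
CPM on a log axis for 16 genes in each of the 2 empty vector (circles), 2 F158E (squares) and 2 full-length PML/RARα libraries (triangles), with group means as bars. In CXCL8, THBS1 and NCF1 the F158E libraries lie between the other groups, in CYBB and HMOX1 beside full-length, and in EPX, HDC and HGF above both.

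Interferon-stimulated genes fell in part. Of 47 tested, 13 fell and 0 rose (22 and 0 at an unadjusted p under 0.05, 11 and 0 with DESeq2), with a median of -0.29, and 8 fell without empty vector library 1 or without F158E library 2. IFI6 (ENSG00000126709.13, chr1:27666061-27672218), an interferon-induced mitochondrial protein gene whose promoter is shown above, was at 16.3 and 17.2 CPM with empty vector and 3.93 and 7.86 with F158E (-1.51 ± 0.19, adjusted p = 2.81e-09). The F158E libraries differed from each other here, yet both stayed under the empty vector range. OAS1 and OAS3, sensors of double-stranded RNA chosen after their values were seen, fell by 1.68 ± 0.29 and 1.20 ± 0.21. LGALS3BP was at 62.9 and 62.3 CPM with empty vector and 46.4 and 39.7 with F158E (-0.54 ± 0.08, adjusted p = 2.86e-07). ISG15 and IFIT3, both classical members, did not pass. ISG15 was at 12.1 and 11.3 CPM with empty vector and 9.41 and 8.96 with F158E (adjusted p = 0.228, 95% interval -0.69 to -0.01), and IFIT3 at 39.3 and 42.8 with empty vector and 33.7 and 41.3 with F158E (adjusted p = 0.479).

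In antigen presentation 5 of 17 tested genes fell and 0 rose (7 and 0 at an unadjusted p under 0.05, 5 and 0 with DESeq2). B2M, the invariant chain of class I molecules, was at 1179.8 and 1199.9 CPM with empty vector and 1034 and 1028 with F158E (-0.21 ± 0.02, adjusted p = 7.81e-12), and HLA-E went from 74.1 and 71.8 to 55.7 and 52.5 (-0.43 ± 0.07, adjusted p = 3.59e-06). The count of this list was 2 without empty vector library 1 and 3 with any 1 of the other 3 left out.

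Both ferritin genes and some genes of the oxidant response fell with F158E. The ferritin chains FTL and FTH1, which store iron, were at 2085 and 2065 and at 566 and 556 CPM with empty vector. With F158E they were at 1542 and 1533 and at 417 and 393 CPM, log2 changes of -0.43 ± 0.02 and -0.47 ± 0.03 (adjusted p = 2.98e-34 and 9.48e-21). HMOX1 (ENSG00000100292.15, chr22:35380361-35394214), the enzyme that breaks down haem, was at 8.90 and 10.7 CPM with empty vector and 4.16 and 2.15 with F158E (-1.63 ± 0.25, adjusted p = 4.44e-07). SLC7A11, the cystine importer that feeds glutathione, fell from 267 and 274 to 161 and 162 CPM (-0.75 ± 0.04, adjusted p = 3.24e-26). SQSTM1, an autophagy receptor named after its value was seen, fell by 0.50 ± 0.06. Of 15 tested iron genes 4 fell and 0 rose (4 and 1 at an unadjusted p under 0.05, 3 and 0 with DESeq2). CYP1B1, a xenobiotic-metabolising enzyme, fell from 46.7 and 53.5 to 24.1 and 23 CPM (-1.09 ± 0.10, adjusted p = 1.46e-14).

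Some lysosome genes fell. Of 32 tested, 9 fell and 1 rose, with a median of -0.16. PSAP, the precursor of the saposins, was at 409 and 424 CPM with empty vector and 332 and 324 with F158E (-0.35 ± 0.03, adjusted p = 1.05e-14), and the protease gene CTSD at 74 and 61.8 with empty vector and 50.6 and 48.2 with F158E (-0.46 ± 0.07, adjusted p = 9.64e-07). The rise, CTSH, was 0.23 ± 0.06, and did not pass without empty vector library 2 or without F158E library 1. The number called in the list was 4 without empty vector library 1, 3 without empty vector library 2 and 3 without F158E library 1.

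Genes of the promyelocyte itself had calls in both directions. Of 26 tested primary granule genes, 9 fell and 2 rose, with a median of -0.08. MPO, the myeloperoxidase gene and among the most abundant messages, was at 3833 and 3766 CPM with empty vector and 4109.6 and 3995 with F158E, a rise of 0.09 ± 0.02 in log2 (adjusted p = 3.78e-06). PRTN3, the proteinase 3 gene, fell from 299.5 and 290.1 to 243 and 231 CPM (-0.32 ± 0.04, adjusted p = 2.78e-11). SRGN, which packs granule proteins, fell from 4399.7 and 4339 to 3848 and 3880.5 CPM (-0.18 ± 0.01, adjusted p = 8.03e-17). The list had 7 calls without empty vector library 1 or 2.

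Of 39 tested myeloid transcription factor genes 4 rose and 3 fell, with a median of 0.01. MYB rose from 568 and 582 to 642 and 639.8 CPM (0.16 ± 0.03, adjusted p = 1.22e-05). CEBPE, the late granulocyte factor gene, was at 66.7 and 64.7 CPM with empty vector and 66.5 and 64.7 with F158E (adjusted p = 0.995, 95% interval -0.15 to 0.14). CEBPA, GFI1 and SPI1, which encodes PU.1, had log2 changes of -0.05 ± 0.06, 0.05 ± 0.05 and -0.13 ± 0.05, and none of them passed, with 95% intervals of -0.17 to 0.07, -0.05 to 0.14 and -0.23 to -0.03. SPI1 passed without empty vector library 1. KLF6 fell from 18.2 and 21 to 13 and 11.6 CPM (-0.67 ± 0.13, adjusted p = 0.000114). The lowest change in the list was that of EGR2, at low levels, from 3.94 and 5.91 to 2.01 and 1.74 CPM (-1.39 ± 0.35, adjusted p = 0.00356). EGR2 lies outside the named genes counted below, and its values under other settings are not given. Counts for the list were 2 rises and 2 falls without empty vector library 2.

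Eosinophil and basophil genes were among the rises. EPX (ENSG00000121053.5, chr17:58192737-58205174), the peroxidase of eosinophil granules, was at 108 and 106 CPM with empty vector and 209 and 211 with F158E. It was 1.97-fold higher (0.98 ± 0.04, adjusted p = 1.34e-34, and 1.8e-12 in the test against a fold of 1.5), with libraries of a group nearly alike. The ΔIDR libraries stood higher still, at 509.6 and 502 CPM, and the full-length libraries were at 94.2 and 89.6. HDC, which makes histamine, rose from 427 and 433 to 562 and 536 CPM (0.35 ± 0.03, adjusted p = 1.12e-15). PRG2, the eosinophil major basic protein gene, was at 267 and 269 CPM with empty vector and 299 and 291 with F158E (0.14 ± 0.04, adjusted p = 0.00598), and did not pass without empty vector library 1 or F158E library 1. GATA2, a factor of the basophil, mast cell and progenitor programmes, was 0.14 ± 0.04 (adjusted p = 0.0148), and it stayed called without F158E library 1 but not with any 1 of the other 3 left out.

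Of 15 tested eosinophil, basophil and mast cell genes, 4 rose and 2 fell (ALOX5AP and TPSAB1), with a median of 0.14. TPSAB1, at 1.73 and 0.897 CPM with empty vector and 0.320 and 0.228 with F158E, did not pass when any of the 4 libraries was left out. The list had 2 rises and 1 fall without empty vector library 1. HGF, the hepatocyte growth factor gene, was at 19.9 and 16.6 CPM with empty vector and 34.8 and 35.4 with F158E (0.94 ± 0.13, adjusted p = 2.65e-08). HGF counts among both the promyelocyte and the cytokine genes here, and was the larger of 2 called rises in the first and the single one in the second. Full-length libraries stood lower than both, at 5.06 and 5.13 CPM for HGF and 208 and 216 for HDC.

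Other rises were spread over genes of many kinds. MFAP4, a microfibril protein gene, went from 6.63 and 10.1 to 18.4 and 17.4 CPM (1.09 ± 0.15, adjusted p = 4.29e-08). AFF2 rose from 13.2 and 15.1 to 27.2 and 28.4 CPM (0.97 ± 0.13, adjusted p = 8.13e-09). The receptor tyrosine kinase gene FGFR1 was at 4.42 and 4.17 CPM with empty vector and 8.31 and 7.95 with F158E (0.92 ± 0.20, adjusted p = 0.000698). LRFN4, SLC25A43 and COL2A1 rose by 0.75, 0.58 and 0.61. HOXB9, NOL4L and TERT, at low levels and chosen after their values were seen, rose by 1.32, 1.48 and 1.06, and TERT did not pass without empty vector library 2. Among genes of other types, the T cell receptor δ constant segment TRDC, whose RNA can be transcribed without rearrangement, rose from 34.1 and 35.6 to 49.4 and 53.5 CPM (0.56 ± 0.09, adjusted p = 3.57e-06).

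Some genes of ribosome assembly rose by small amounts. Of 61 tested ribosome assembly and MYC target genes, 23 rose and 0 fell (36 and 0 at an unadjusted p under 0.05, 23 and 0 with DESeq2), with a median of 0.10. DDX21, a nucleolar helicase gene, was at 1286 and 1316 CPM with empty vector and 1476 and 1498 with F158E (0.19 ± 0.02, adjusted p = 2.83e-12). NOLC1, another nucleolar gene, went from 698 and 702 to 782 and 789 CPM (0.17 ± 0.02, adjusted p = 2.84e-07), and RRP1B from 128 and 135 to 160.4 and 156 (0.27 ± 0.05, adjusted p = 6.01e-06). These shifts were larger than the gap between libraries of a group but far smaller than those of the inflammatory genes. MYC was at 454 and 451 CPM with empty vector and 507 and 483 with F158E (0.13 ± 0.03) and did not pass without F158E library 1. The count of the list was 13 without empty vector library 1, 11 without empty vector library 2 and 14 with either F158E library left out.

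Cytosolic ribosomal protein genes had 9 rises and 1 fall of 77, with a median of 0.003, and RPL4 was at 0.19 ± 0.02 (adjusted p = 1.4e-13). Of these genes 74 were at 100 CPM or more, where 23.2% of all tested genes were called, so their count was not above the background at that level. Their count was 4 without empty vector library 1, empty vector library 2 or F158E library 2, and 6 without F158E library 1. Of 44 tested S phase genes, 10 rose and 2 fell. The called share of the S phase list was 27.27%, with 20 of the 44 at 100 CPM or more, beside 23.2% of all tested genes at that level. MCM3 and MCM4, subunits of the replicative helicase, went from 289.9 and 307 to 353 and 351 CPM (0.24 ± 0.03) and from 405 and 412 to 465 and 458 (0.18 ± 0.03). The S phase counts were 4 rises and 0 falls without empty vector library 2, and 7 rises and 0 falls without empty vector library 1 or F158E library 1. Of 42 tested mitosis genes, 7 fell and 0 rose (7 and 1 at an unadjusted p under 0.05, 6 and 0 with DESeq2). Of the 42, 31 were at 100 CPM or more, where 23.2% of all tested genes were called. The called share of the mitosis list was 16.67%, so its count did not exceed the background at that level. PRC1, which bundles microtubules of the spindle midzone, was at 375 and 377 CPM with empty vector and 313 and 314 with F158E (-0.26 ± 0.03, adjusted p = 4.65e-09), and ANLN at 433 and 441 with empty vector and 385 and 381 with F158E (-0.19 ± 0.03, adjusted p = 4.38e-06). The mitosis count was 2 without empty vector library 2 and 4 with any 1 of the other 3 left out.

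Chromatin and amino acid genes also held rises. Of 36 tested nuclear receptor coregulator and chromatin repressor genes, 7 rose and 0 fell (10 and 1 at an unadjusted p under 0.05, 6 and 0 with DESeq2), and 3 rose without empty vector library 2. The 7 calls made up 19.44% of the tested list. Of its 36 genes, 17 were at 100 CPM or more, where 23.2% of all tested genes were called. KDM1A, the histone demethylase LSD1, went from 212 and 211 to 241 and 237 CPM (0.18 ± 0.04, adjusted p = 0.000698). The methyltransferase gene DNMT3B went from 40.6 and 43.7 to 56.3 and 55.5 CPM (0.41 ± 0.09, adjusted p = 0.000496). Of 36 tested ATF4 response and amino acid supply genes, 7 rose and 3 fell, SLC7A11 among the latter. The called share was 27.78%, with 16 of the 36 at 100 CPM or more, beside 23.2% of all tested genes at that level. SLC7A5, a leucine importer, rose from 666 and 672 to 787 and 753 CPM (0.20 ± 0.03, adjusted p = 2.78e-09). In this list 4 rose and 1 fell without empty vector library 2 or without F158E library 2. Of 37 glycolysis and hypoxia genes, 6 rose and 6 fell. These 12 calls were 32.43% of the list, which had 17 genes at 100 CPM or more, beside the same 23.2%. The lactate exporter SLC16A3 fell from 496 and 480.4 to 387 and 360.2 CPM (-0.39 ± 0.03, adjusted p = 8.35e-17) and the pyruvate kinase gene PKM by 0.22 ± 0.02, while ENO1 and LDHA rose by 0.12 ± 0.02 and 0.10 ± 0.02.

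**Figure D3:**
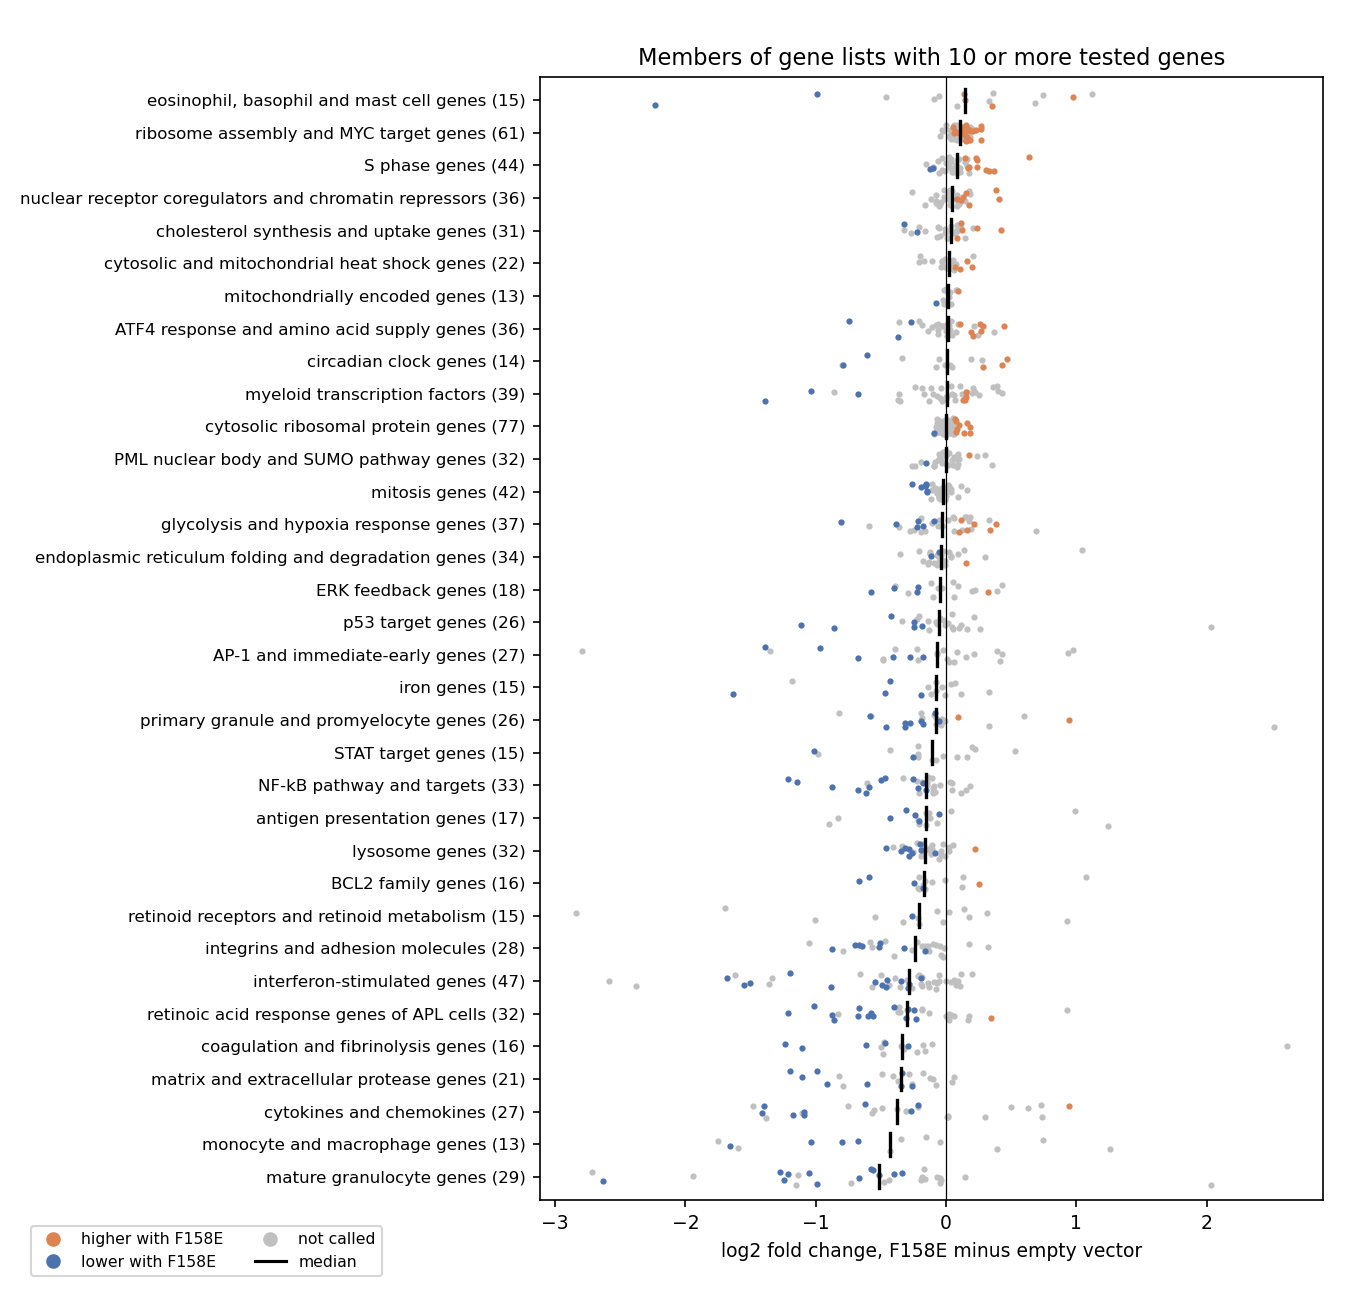
Log2 fold change (F158E minus empty vector) of each tested gene in the gene lists with 10 or more tested members, ordered by their median (black bars), with called genes in orange (higher) and blue (lower). Granulocyte, monocyte, cytokine and matrix lists lie lowest, and ribosome assembly and S phase genes sit slightly above 0.

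Sterol and endoplasmic reticulum genes moved little from the empty vector level. Of 31 tested cholesterol genes, 5 rose and 2 fell with F158E, with a median of 0.04, whereas full-length PML/RARα against the same empty vector libraries had 3 higher and 25 lower (background 24.2% and 24.4%) with a median of -0.69. HMGCS1, an enzyme at the start of the sterol pathway, was at 257 and 254 CPM with empty vector, 253 and 255 with F158E and 83.9 and 92.5 with full-length. INSIG1, which restrains sterol synthesis, was at 431 and 437 CPM with empty vector, 438 in each library with F158E and 131 and 136 with full-length. Neither passed against empty vector, with 95% intervals of -0.09 to 0.07 and -0.05 to 0.08 in log2, and both were above full-length, by 1.53 ± 0.04 and 1.71 ± 0.03 (adjusted p = 1.11e-47 and 1.35e-59). SCD, a fatty acid desaturase gene, rose by 0.24 ± 0.02. Cholesterol counts were 3 rises and 1 fall without empty vector library 2.

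Of 34 tested endoplasmic reticulum folding and degradation genes, 1 rose and 2 fell with F158E, with a median of -0.04, beside 1 and 27 with full-length and a median of -0.55. Their count with F158E was 1 without empty vector library 1 and 5 with limma's voom. The called share of the list with F158E was 8.82%, close to the 8.65% over all tested genes. HSPA5, the main chaperone, was at 2502 and 2489.9 CPM with empty vector, 2272 and 2336 with F158E and 966 and 992 with full-length. It fell by 0.12 ± 0.02 from empty vector (adjusted p = 8.67e-07), and F158E exceeded full-length by 1.23 ± 0.02 (adjusted p = 2.18e-69).

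The remaining lists gave smaller counts. Of 28 tested integrins and adhesion molecules, 8 fell and 0 rose (16 and 1 at an unadjusted p under 0.05, 8 and 0 with DESeq2), with 5 without F158E library 2, and CD93, a receptor of myeloid and endothelial cells, went from 170.4 and 167 to 119.9 and 118 CPM (-0.51 ± 0.04). Of 27 tested AP-1 and immediate-early genes, 6 fell and 0 rose (10 and 3 at an unadjusted p under 0.05, 6 and 0 with DESeq2), among them FOS, KLF6 and MAFG. Of 26 tested p53 target genes, 6 fell and 0 rose (6 and 2 at an unadjusted p under 0.05, 6 and 0 with DESeq2), and 3 fell without empty vector library 1, empty vector library 2 or F158E library 2. CDKN1A, the gene of the cell cycle inhibitor p21, was at 7.87 and 7.34 CPM with empty vector and 3.20 and 3.84 with F158E (-1.11 ± 0.24, adjusted p = 0.000475).

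Of 18 tested ERK feedback genes, 1 rose (ETV4) and 4 fell, with PHLDA1 at -0.57 ± 0.11. The ERK count was 3 without empty vector library 1 or 2 and 2 without F158E library 1. Of 16 tested BCL2 family genes, 4 fell and BCL2 rose by 0.25 ± 0.08, which did not pass without empty vector library 2 or either F158E library. MCL1, a survival gene of myeloid cells, fell from 455 and 447 to 397 and 401 CPM (-0.18 ± 0.03). The BCL2 family count was 2 without empty vector library 1 or either F158E library and 3 without empty vector library 2 or without the filter on low counts. Of 22 tested heat shock genes, 4 rose and 0 fell (7 and 2 at an unadjusted p under 0.05, 4 and 0 with DESeq2), with 17 of the 22 at 100 CPM or more; the count was 2 without empty vector library 1 or F158E library 2, and voom called 6 higher and 2 lower. The called share of the heat shock list was 18.18%, beside 23.2% of all tested genes at 100 CPM or more. CHORDC1 rose from 244 and 247 to 289 and 275 CPM (0.20 ± 0.04).

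Of 15 tested STAT target genes 2 fell and 0 rose (2 and 3 at an unadjusted p under 0.05, 2 and 0 with DESeq2); 1 was called without empty vector library 1 and 0 without empty vector library 2 or F158E library 2. Of 32 tested PML nuclear body and SUMO pathway genes 1 rose (TOPORS) and 1 fell (RNF4); 0 were called without empty vector library 1 or F158E library 2 and 1 without empty vector library 2 or with DESeq2. The called share of the PML nuclear body and SUMO list was 6.25%, beside 8.65% of all tested genes, so its count did not exceed the background. The 9 tested replication-dependent histone genes had 0 calls in either direction (1 and 0 at an unadjusted p under 0.05, 0 and 0 with DESeq2), as did 4 tested erythroid and megakaryocyte markers (1 and 0 at an unadjusted p under 0.05, 0 and 0 with DESeq2). Of 6 tested lymphoid markers 2 fell (CD4 and NKG7) and 0 rose (3 and 0 at an unadjusted p under 0.05, 2 and 0 with DESeq2), and the list of 20 summed to 333 and 331 CPM with empty vector and 279.7 and 282 with F158E. The lymphoid markers CD7, LCK, KLRD1, MS4A1 and PAX5 had 0 counts in all 4 libraries, and CD4 is also a gene of monocytic cells. The part of other cell types in these 2 falls was not tested.

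Set beside full-length PML/RARα, F158E cells fell into 4 patterns, each tested by the contrast of F158E with full-length, since both share the empty vector libraries. The genes named in each pattern were picked from the named genes after their values were seen, so the patterns are descriptions. In the first, the F158E level lay between the others. CXCL8 was at 488, 229.5 and 33.8 CPM in empty vector, F158E and full-length means, with F158E above full-length by 2.76 ± 0.04 (adjusted p = 5.46e-67). IL1B, CCL2, ICAM1, THBS1 and MMP9 lay in the same order, with F158E above full-length by 2.57, 2.34, 2.27, 2.22 and 1.46 in log2 (adjusted p = 4.36e-23, 2.44e-30, 1.61e-49, 1.22e-61 and 5.13e-44). RRP1B, DDX21, MCM3 and RPL4 were between the groups in the upward direction, with log2 differences from full-length of -0.75, -0.22, -0.58 and -0.48 (adjusted p = 6.56e-27, 5.35e-16, 8.55e-28 and 1.31e-39).

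In the second pattern F158E and full-length were not told apart. CYBB was at 294 CPM with F158E and 281 with full-length, against 438 with empty vector, a difference of 0.06 ± 0.03 between the 2 constructs (adjusted p = 0.103, 95% interval -0.0004 to 0.13). For ITGB2 the interval of that difference was -0.10 to 0.11, for CYP1B1 -0.18 to 0.25, for ALOX5AP -0.31 to 0.32, for HMOX1 -0.56 to 0.52 and for OAS1 -0.61 to 0.70. For each of these genes the interval excludes a difference as large as its own fall from empty vector, which was -0.58 for CYBB and -0.51 for ITGB2. Among them the intervals of HMOX1 and OAS1 were the widest.

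In the third pattern F158E did not pass against empty vector where full-length was lower. Besides HMGCS1 and INSIG1 this held for TNFAIP3, at 119, 108 and 13.5 CPM, with F158E 3.0 ± 0.08 above full-length (adjusted p = 2.11e-50). CEBPE was at 65.7, 65.6 and 26.8 CPM, a difference of 1.29 ± 0.08 from full-length (adjusted p = 3.96e-25). IFIT3 was at 41, 37.5 and 8.34 CPM (2.17 ± 0.12 above full-length, adjusted p = 5.63e-29). The 95% interval of IFIT3 against empty vector was -0.32 to 0.06.

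In the fourth pattern F158E lay outside the range of the empty vector and full-length libraries. FOS, an AP-1 gene of the immediate-early response, was at 9.71 and 10.1 CPM with empty vector, 5.25 and 4.84 with F158E and 30.9 and 25.5 with full-length, so that F158E fell by 0.97 ± 0.18 and full-length rose by 1.51. The log2 difference of F158E from full-length was -2.48 ± 0.16 (adjusted p = 1.23e-23). KLF6, CD86, C5AR1 and CDKN1A were also lower with F158E than with full-length, with log2 differences of -1.69, -2.10, -1.15 and -1.21 (adjusted p = 1.77e-20, 6.65e-08, 3.99e-09 and 1.21e-05). SH3TC1 was at 3.56 and 4.96 CPM with empty vector, 0.913 and 0.960 with F158E and 6.99 and 6.47 with full-length, and differed from full-length by -2.84 ± 0.34 (adjusted p = 1.16e-11). Above both groups lay EPX, HDC and HGF, with differences from full-length of 1.19 ± 0.04, 1.37 ± 0.03 and 2.78 ± 0.15 (adjusted p = 3.71e-41, 5.84e-54 and 1.39e-28). TRDC was above full-length by 1.10 ± 0.10 (adjusted p = 5.82e-17).

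**Figure D4:**
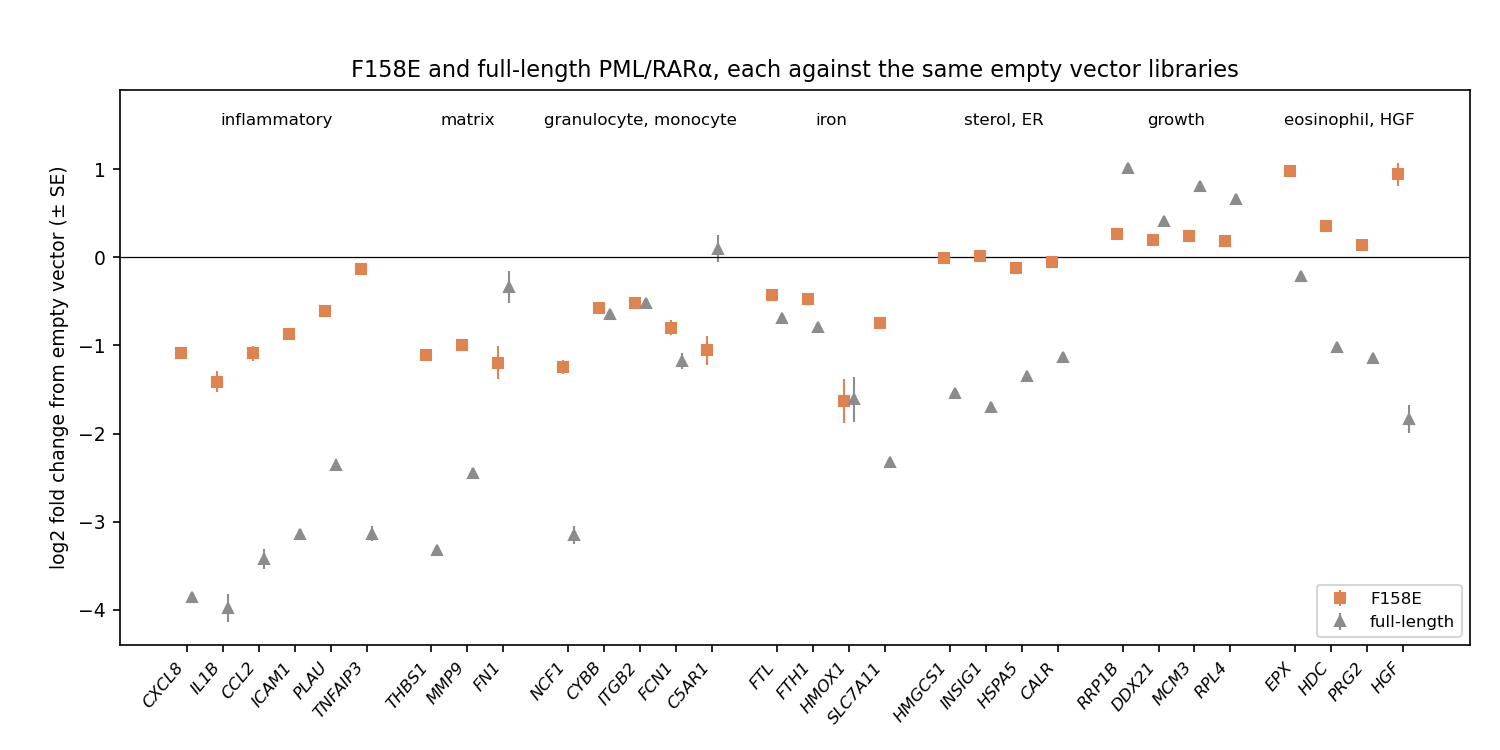
Log2 fold change from empty vector ± SE of 30 genes in 7 groups, for F158E (squares) and full-length PML/RARα (triangles), both against the same 2 empty vector libraries. F158E lies nearer 0 in most inflammatory, sterol and growth genes, beside full-length in CYBB, ITGB2 and HMOX1, and on the other side of 0 in EPX, HDC, PRG2 and HGF.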

How the data were processed

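The series holds 8 RNA-seq libraries of NB4 cells; the labels state total RNA, depletion of ribosomal RNA and a NEBNext Ultra kit. The authors deposited raw read counts per gene, one file per library, with 60483 gene identifiers and 5 lines of unassigned reads, in rows laid out like htseq-count output. Per the submitters' processing notes the build is GRCh38. Aligner, counter, annotation release and strand setting are not given in the sources used here, so reads of overlapping or antisense genes could not be told apart. The unassigned lines (reads in no gene, ambiguous or multiply aligned) stayed out of library totals and tests; 87.9% to 88.7% of reads were assigned to genes. Of the identifiers, 56321 matched the symbol table and 56753 GENCODE 29, used for gene types and positions.

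Counts were fitted with edgeR 4.0.16 in R 4.3.3 (TMM factors, filterByExpr, quasi-likelihood test) on all 8 libraries. The dispersion followed a trend over expression level, estimated over all groups together. Each gene's own spread was then drawn toward that of other genes, with a median of 78.3 prior degrees of freedom. SE and p-values therefore rest largely on a spread shared over genes, and only in small part on a gene's own replicates. P-values were adjusted by Benjamini-Hochberg over all 13982 tested genes at 0.05. Gene-wise tests against a fold of 1.5 used glmTreat. The SE is the absolute log2 fold change divided by the square root of the quasi-likelihood F statistic. Intervals are 95% and not adjusted, and were built from that SE with the same degrees of freedom for all genes. Replicates of a group differed by more than sampling noise and no files were identical. Scripts were tested on simulated data. The alternatives were DESeq2 1.42.0, limma 3.58.1 voom, other scalings and filters, a fit on the 2 groups only, a replicate block, and leaving out each library; robust dispersion and edgeR's adjusted deviance were added after seeing the data.

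The comparison, the 39 gene lists and the panel were chosen with earlier results of these data known. The rule for named genes took PML, RARA and the panel. It added the top 15 called protein-coding genes by size in each direction, and the top 5 of other gene types, where groups did not overlap and mean log2 CPM reached 3. From each list with 3 or more calls it took the 3 best adjusted p on the side with more calls and 2 on the opposite side. A further 27 genes were added after their values were seen. List members that failed the filter (207 in all) were not tested. Promoters are RefSeq windows on GRCh38.p14. No protein sequence was used here.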

Additional observations from a re-analysis of the deposited data

Results flagged for a closer look

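Reads that fell in no gene were a larger share of the F158E libraries, at 4.29% and 4.28%, than of the empty vector libraries, at 3.95% and 3.98%. They are no part of the gene comparison, and their share was above the control level in both F158E libraries. Multiply aligned reads ran the other way, at 4.20% and 4.19% against 4.59% and 4.61%. In each case the exact two-sided permutation p was 0.333, the smallest that 2 libraries against 2 can give. The part of either share in the gene results was not tested.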

How the results depend on the processing

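Leaving out 1 library gave 638 to 778 called genes against 1210, 68 to 88 with at least a 2-fold change against 111, and 17 to 21 past a fold of 1.5 against 24; fewer libraries enter each of these fits. With all 8 libraries kept, called genes numbered 1061 (no filter, where more genes are tested) to 1326 (edgeR 4 bias-adjusted deviance), with 1091 for DESeq2. The fit on the 2 groups only, which leaves out the other 4 libraries, called 1343. The split of higher and lower calls was 587 and 623 on library totals only and 567 and 494 without a filter, against 557 and 653. Of 168 named genes tested, 155 were called, and 105 of these stayed called in the same direction under every setting. No named gene reversed. DESeq2 gave no adjusted p for 3 named genes. Deviations of libraries with the same replicate number had correlations between -0.0163 and 0.0206 over pairs of groups, and 0.00694 for empty vector and F158E. These correlations run over all tested genes and include counting noise, so they cannot show that libraries of a number were made apart. With the replicate block 1212 genes were called, of which 1198 were among the 1210, 107 had at least a 2-fold change and 31 were past a fold of 1.5. The block gave 6107 calls for F158E against full-length and 6778 for full-length against empty vector. Groups of 2 libraries limit each statement, and below 1 CPM the smallest called change was 1.86 in log2.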

Other observations

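Both mitochondrial ribosomal RNA genes were lower with F158E, named after their values were seen. MT-RNR2 was at 3106 and 3142 CPM with empty vector and 2609.9 and 2628 with F158E (-0.25 ± 0.02, adjusted p = 5.4e-23 from edgeR), and MT-RNR1 at 398 and 414 with empty vector and 322 and 336 with F158E (-0.30 ± 0.03, adjusted p = 8.54e-12). Of 13 tested mitochondrially encoded protein genes 1 rose (MT-CO3) and 1 fell (MT-ND1), while voom called 5 higher and 2 lower, and their summed share of counts was 3.354% and 3.363% against 3.404% and 3.403%. All 13 protein genes were at 100 CPM or more, and their called share was 15.38%, beside 23.2% of all tested genes at that level. The libraries had ribosomal RNA depleted, and whether the depletion differed was not tested.

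Of 14 tested circadian clock genes, 3 rose and 2 fell. DBP, an output gene of the clock, was at 11.7 and 10.2 CPM with empty vector and 12.8 and 17.4 with F158E (0.46 ± 0.14, adjusted p = 0.0164), PER1 at 15.6 and 13.2 with empty vector and 20.2 and 18.7 with F158E (0.43 ± 0.14) and PER2 at 41.3 and 38.8 with empty vector and 49.2 and 48.1 with F158E (0.28 ± 0.09). The repressors BHLHE40 and BHLHE41 fell from 27.9 and 25 to 17.8 and 16.8 CPM (-0.61 ± 0.12) and from 8.31 and 10.3 to 7.26 and 3.52 (-0.79 ± 0.23). Without empty vector library 1 or F158E library 1, 1 gene rose and 2 fell, and without empty vector library 2 or F158E library 2, 0 rose and 1 fell. DESeq2 called 2 higher and 1 lower.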
